A study of Homo sapiens with 8 samples.

Results

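The 10 genes described here, DDN, KREMEN2, SAPCD2, RABAC1, INKA1, SLC17A9, TRIP10, TUBA4A, RAB3A and GFI1B, were picked by symbol for large or selective falls under elesclomol in earlier results of these libraries. They are 10 of 15597 protein-coding genes with values, and all 10 were among the 9805 genes that passed the filter of at least 1 FPKM in at least 2 libraries. FPKM scales the reads of a gene by its length and by the reads of the library. The choice used the elesclomol response in both kinds of cell and the gap between these responses, so those values are given as a description with no test. The RNA came from SUDHL-4, a widely used human cell line derived from a B-cell lymphoma of the diffuse large B-cell type (DLBCL). Wild-type control cells and cells overexpressing ferredoxin 1 (FDX1-OE) were kept for 48 h in DMSO or in 5 nM elesclomol (ES), and there were 2 libraries per group and 4 groups. The labels do not say how FDX1 was expressed, whether FDX1-OE cells were 1 clone, or whether the control cells carried an empty vector. They do not say either that replicates came from separate cultures, so SDs and SEs measure the spread between these libraries, which may be technical.

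Elesclomol is a copper ionophore, a small molecule that carries copper into cells, where FDX1 is known to reduce the copper it delivers. FDX1 is a mitochondrial iron-sulfur protein that also acts in protein lipoylation, and copper bound to lipoylated proteins is known to start a form of cell death called cuproptosis. The 10 genes belong to no single pathway. RAB3A, RABAC1 and SLC17A9 act on secretory vesicles and the Golgi. TUBA4A, TRIP10, INKA1 and SAPCD2 act on microtubules, actin and the mitotic spindle, and DDN is known from neurons and the kidney. KREMEN2 is a receptor that dampens Wnt signalling, and GFI1B is a transcriptional repressor.

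The library totals lay between 33435438 and 35883528 reads. FDX1 stood at 25.58 and 22.2 FPKM in the control DMSO libraries and at 72.41 and 69.87 FPKM in the FDX1-OE DMSO libraries, 2.90-fold higher on the scale of FPKM + 1 (limma adjusted p = 1.9e-06). In ES it stood at 21.32 and 21.35 FPKM in control cells and at 82.51 and 84.84 FPKM in FDX1-OE cells, so it was higher in every library labelled FDX1-OE than in every control library. Of 12 germinal-centre B cell markers all 12 were tested, among them CD79A at group means of 654.9 to 903.3 FPKM and BCL6 at 54.74 to 70.99 FPKM. EBF1, the lowest of them, stood at group means of 0.9968 to 1.207 FPKM.

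Upstream sequences are shown for genes that contrast in their response: INKA1 and SAPCD2 were lower with ES in both kinds of cell, while TUBA4A and GFI1B were lower with ES in FDX1-OE cells and near their DMSO level in control cells. They come from RefSeq promoter windows (build GRCh38.p14, 250 bases before to 50 after a start), which matched 5 of the 10 genes by symbol, and GFI1B has 2 windows. Each sequence is the longest stretch before the start that is free of annotated exons. Capitals mark matches to any of 8 motifs searched on both strands: the GC box GGGCGG, the CCAAT box, the TATA box TATAAA, the E-box CACGTG, the ETS site CGGAAG, the cyclic AMP response element (CRE) TGACGTC, the NRF1 core GCGCATG, and the metal response element core, which is either TGCACNC or else TGCGCNC.
INKA1, chr3:49803011-49803253, plus strand: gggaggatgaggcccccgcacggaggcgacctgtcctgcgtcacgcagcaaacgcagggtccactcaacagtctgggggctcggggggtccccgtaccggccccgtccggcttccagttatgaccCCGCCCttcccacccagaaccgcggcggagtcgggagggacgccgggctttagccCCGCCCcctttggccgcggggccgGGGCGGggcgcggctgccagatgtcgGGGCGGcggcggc
SAPCD2, chr9:137070589-137070807, minus strand: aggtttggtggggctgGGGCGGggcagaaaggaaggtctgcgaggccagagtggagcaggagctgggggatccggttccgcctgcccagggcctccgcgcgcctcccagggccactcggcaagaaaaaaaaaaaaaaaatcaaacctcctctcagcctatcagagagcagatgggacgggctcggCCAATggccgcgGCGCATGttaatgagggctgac
TUBA4A, chr2:219254033-219254094, minus strand: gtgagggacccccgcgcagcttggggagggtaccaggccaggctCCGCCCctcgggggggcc
GFI1B, chr9:132945376-132945530, plus strand: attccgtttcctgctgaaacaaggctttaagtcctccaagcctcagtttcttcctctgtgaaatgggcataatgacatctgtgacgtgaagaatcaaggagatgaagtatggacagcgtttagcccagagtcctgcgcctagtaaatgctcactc

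The INKA1 window held 4 GC boxes, and the TUBA4A window, counted over all 300 bases, also held 4. These genes differ in their control response, with INKA1 lower and TUBA4A level. The SAPCD2 window held 1 GC box, 1 CCAAT box and 1 NRF1 core. The RAB3A window, not shown, held 3 GC boxes, 1 CRE and 1 metal response element core. Of the GFI1B windows the first held none of the 8 motifs and the other held 1 CCAAT box. Of 35116 promoters of the same length, 45.0% held a GC box, 34.6% a CCAAT box, 29.6% a metal response element core, 4.43% an NRF1 core and 3.45% a CRE. None of the 8 motifs was present in every window, and a match is a description of letters alone.

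Among the vesicle genes, RAB3A encodes a small GTPase of secretory vesicles that acts in regulated exocytosis. Its level was 8.349 and 8.602 FPKM in control DMSO, 5.961 and 6.543 FPKM in control ES, 8.012 and 8.512 FPKM in FDX1-OE DMSO, and 4.671 and 3.275 FPKM in FDX1-OE ES. The 4 DMSO libraries lay together, both control ES libraries lay below them, and both FDX1-OE ES libraries lay lower still. ES left 73.8% of the mean DMSO level in control cells and 48.1% in FDX1-OE cells. On the log2(FPKM + 1) scale the changes were -0.39 ± 0.11 and -0.91 ± 0.11 (SE of the limma fit, n = 2 libraries a group throughout). The 2 FDX1-OE ES libraries stood apart from each other, and the difference between the changes, -0.52, ran from -0.73 to -0.32 as single libraries were left out. In the RefSeq gene table RAB3A overlaps MPV17L2, which stood between 35.4 and 40.05 FPKM in the 8 libraries, and since strand use in counting is not stated, shared reads cannot be told apart.

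SLC17A9 encodes VNUT, the transporter that loads ATP into secretory vesicles. It stood at 43.87 and 44.15 FPKM in control DMSO, 28.21 and 28.46 FPKM in control ES, 40.85 and 40.21 FPKM in FDX1-OE DMSO, and 18.91 and 18.58 FPKM in FDX1-OE ES. No group overlapped another, and the 2 libraries of each group lay close together. ES left 64.4% of the DMSO level in control cells and 46.3% in FDX1-OE cells. In log2 terms the changes were -0.62 ± 0.05 and -1.07 ± 0.05, and their difference of -0.46 stayed between -0.47 and -0.44 whichever library was left out.

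RABAC1 encodes PRA1, a Golgi membrane protein that binds prenylated Rab GTPases. Its level was 124.3 and 114.3 FPKM in control DMSO, 72.33 and 66.45 FPKM in control ES, 112.4 and 92.72 FPKM in FDX1-OE DMSO, and 73.53 and 73.15 FPKM in FDX1-OE ES. Here the FDX1-OE cells started lower and ended no lower than the control cells. ES left 58.2% of the DMSO level in control cells and 71.5% in FDX1-OE cells. The log2 changes were -0.77 ± 0.08 and -0.47 ± 0.08, a smaller fall in FDX1-OE cells by 0.30 ± 0.12. That difference ran from 0.16 to 0.44 as single libraries were left out, and the FDX1-OE DMSO libraries lay far apart.

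Other genes of the Rab GTPase cycle and vesicle fusion were split in direction. Of 31 tested, 10 rose and 3 fell with ES in control cells, and 11 rose and 5 fell in FDX1-OE cells (limma, adjusted p below 0.05 over all genes tested). Over all genes tested 25.5% rose and 12.9% fell in control cells, and 37% rose and 19.2% fell in FDX1-OE cells, and the counts of each list below stand beside these shares. The list's median log2 change was 0.10 in control and 0.09 in FDX1-OE cells, beside 0.06 and 0.09 over all 9805 genes. Scaling by the median ratio of each library to the average library (RLE) moved the median of all genes to -0.01 and -0.03, and the falls of the 10 genes with ES were larger under it. With RLE scaling 6 of the list rose in control cells, and 7 rose and 9 fell in FDX1-OE cells. Here and for the lists below, a count under RLE scaling is given only where it moved markedly. A count left out is not to be read as 0. Under that scaling 17.3% of all genes tested rose and 21.7% fell in control cells, and 24.3% rose and 31.7% fell in FDX1-OE cells. NAPA, the alpha-SNAP protein that recycles SNARE complexes, rose 1.40-fold in control cells (adjusted p = 0.00013 in limma) and 1.37-fold in FDX1-OE cells. The Rab27 effector gene SYTL2 rose 1.36-fold and 1.58-fold, and SYTL1 of the same family rose 1.64-fold in FDX1-OE cells.

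Of 13 tested genes of ATP release and purine signalling, the list around SLC17A9, 4 rose in control cells, and 4 rose and 1 fell in FDX1-OE cells. Under RLE scaling 1 rose and 3 fell in control cells and 4 fell in FDX1-OE cells. P2RX4, an ATP-gated cation channel, rose 1.33-fold in control and 1.72-fold in FDX1-OE cells. P2RX5 of the same family rose 1.44-fold in FDX1-OE cells, and ATP6V0A1, a subunit of the proton pump that energises vesicles, rose 1.32-fold there.

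**Figure D1:**
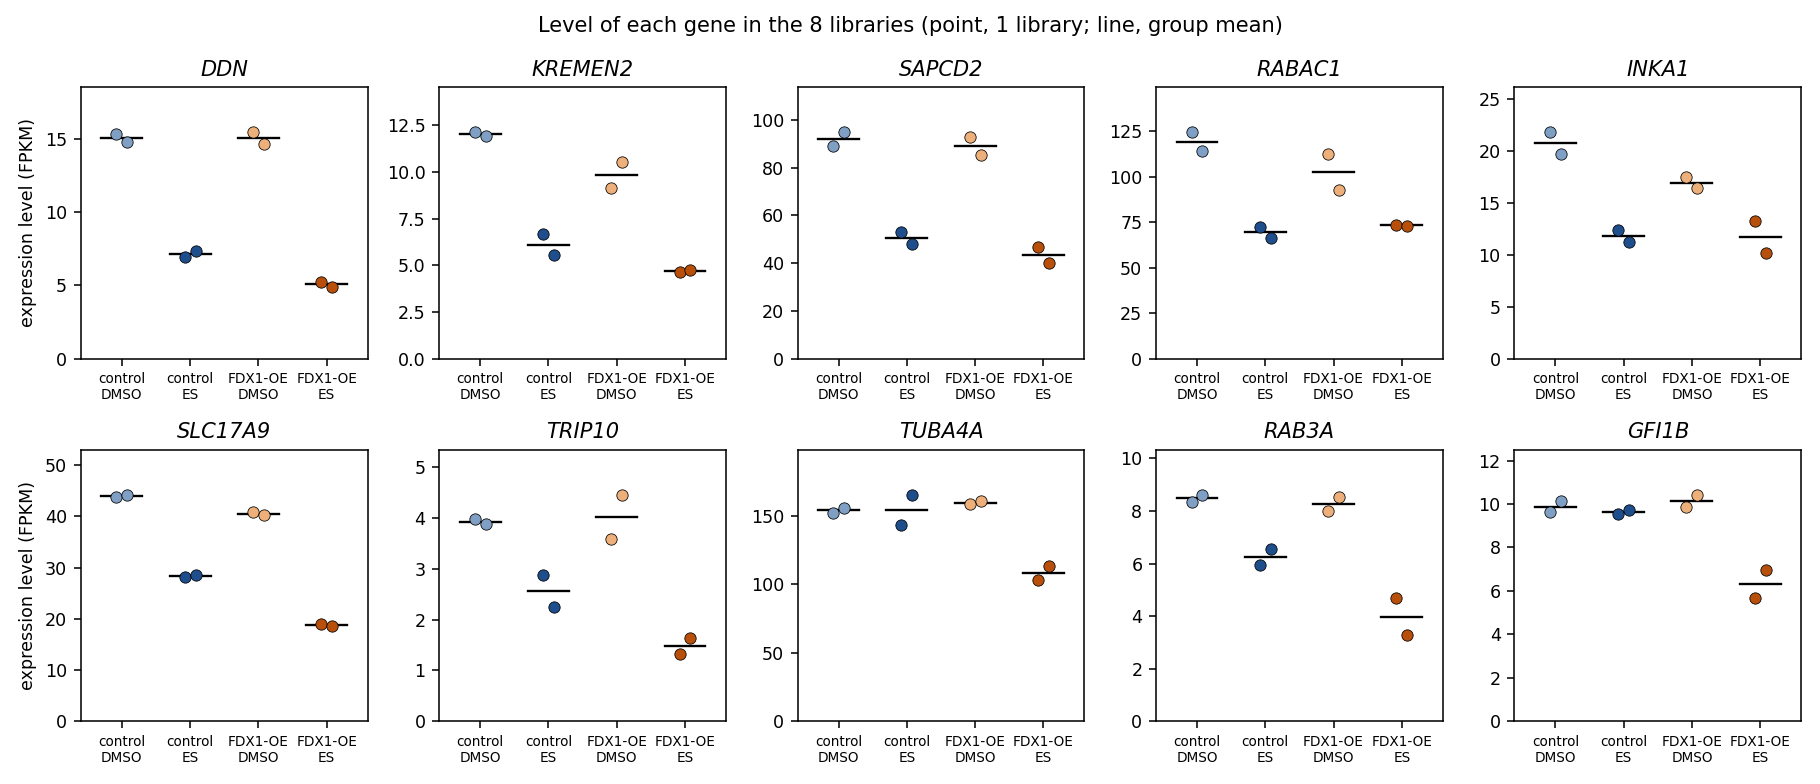
FPKM of each of the 10 genes (vertical axis, from 0) in the 4 groups, with 1 point per library and a line at the mean of 2 libraries. In 8 panels both control ES libraries lie below both control DMSO libraries, as in 26.1% of all genes tested, and in TUBA4A and GFI1B the control groups overlap while both FDX1-OE ES libraries lie lowest.

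Of the cytoskeletal genes, TUBA4A encodes an alpha-tubulin whose last encoded residue is not the tyrosine found in most other alpha-tubulins. It stood at 152.3 and 155.8 FPKM in control DMSO, 143.7 and 165.3 FPKM in control ES, 158.6 and 161.0 FPKM in FDX1-OE DMSO, and 103.2 and 113.6 FPKM in FDX1-OE ES. Both FDX1-OE ES libraries lay below the other 6, and the control ES libraries lay on either side of the control DMSO libraries. ES left 100.3% of the DMSO level in control cells and 67.9% in FDX1-OE cells. The log2 changes were 0.00 ± 0.07 and -0.56 ± 0.07. The control value ran from -0.10 to 0.10 as single libraries were left out and was -0.09 under RLE scaling, and the FDX1-OE value was -0.70 under RLE scaling. TUBA4A overlaps STK16, at 5.156 to 7.076 FPKM, and TUBA4B, at 0.1036 FPKM or less. Reads that alpha-tubulin genes share could be split among them in ways the sources do not state.

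TRIP10 encodes CIP4, an F-BAR protein that binds active CDC42 and links membrane curvature to actin. It was the least abundant of the 10 genes, with 3.993 and 3.877 FPKM in control DMSO, 2.887 and 2.246 FPKM in control ES, 3.598 and 4.456 FPKM in FDX1-OE DMSO, and 1.317 and 1.639 FPKM in FDX1-OE ES. The 3 levels, DMSO, control ES and FDX1-OE ES, did not overlap. ES left 65.2% of the DMSO level in control cells and 36.7% in FDX1-OE cells. As log2 changes these came to -0.47 ± 0.11 and -1.02 ± 0.11. These understate the fall of so low a gene: voom on the recovered reads gave -0.63 and -1.44. The lowest library held 107 reads of TRIP10, a counting error of 9.67%.

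INKA1 encodes an inhibitor of the kinase PAK4, which acts on actin downstream of CDC42. Its level was 21.75 and 19.68 FPKM in control DMSO, 12.34 and 11.23 FPKM in control ES, 17.43 and 16.44 FPKM in FDX1-OE DMSO, and 13.27 and 10.12 FPKM in FDX1-OE ES. As with RABAC1, the FDX1-OE cells started lower, and in ES both kinds of cell overlapped. ES left 56.9% of the DMSO level in control cells and 69.1% in FDX1-OE cells. On the log2 scale INKA1 changed by -0.76 ± 0.11 and -0.51 ± 0.11. Their difference of 0.26 ± 0.15 ran from 0.08 to 0.44 as single libraries were left out.

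Other genes of the CDC42, PAK and actin list were split in direction. Of 30 tested, 8 rose and 7 fell in control cells, and 5 rose and 8 fell in FDX1-OE cells, where 12.9% and 19.2% of all genes tested fell. The median log2 change was 0.07 in control and 0.03 in FDX1-OE cells. Under RLE scaling 3 rose in control cells, and 3 rose and 13 fell in FDX1-OE cells, where 31.7% of all genes tested fell. CDC42EP2, a CDC42 effector, fell to 0.71 of DMSO in control and 0.66 in FDX1-OE cells on the FPKM + 1 scale. ARHGDIA fell to 0.81 and 0.65, and the actin-severing CFL1 to 0.84 and 0.85. ACTR3 of the ARP2/3 complex fell to 0.71 in FDX1-OE cells, where DOCK8, an exchange factor that activates CDC42, rose 1.40-fold.

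SAPCD2 encodes a regulator of mitotic spindle orientation and cell polarity. It stood at 89.03 and 94.75 FPKM in control DMSO, 53.12 and 48.15 FPKM in control ES, 92.75 and 85.37 FPKM in FDX1-OE DMSO, and 46.79 and 39.93 FPKM in FDX1-OE ES. Both ES groups lay below all 4 DMSO libraries, and the FDX1-OE ES libraries lay below the control ES libraries. ES left 55.1% in control and 48.7% in FDX1-OE cells. The log2 changes were -0.85 ± 0.08 and -1.02 ± 0.08, and their difference, -0.18 ± 0.11, ran from -0.29 to -0.07 as single libraries were left out. Of 16 tested genes of spindle orientation, 4 rose and 1 fell in control cells, and 5 rose and 1 fell in FDX1-OE cells. Under RLE scaling the 4 rises in control cells were lost and 3 genes fell there, and 1 rose and 5 fell in FDX1-OE cells. The gene that fell in both was SCRIB, a polarity scaffold, to 0.75 of DMSO in control and 0.71 in FDX1-OE cells. LLGL2, a polarity protein of the same module, rose 1.38-fold in FDX1-OE cells.

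DDN encodes dendrin, a protein known from neuronal dendrites and from the podocytes of the kidney filter. It had the largest fall of the 10 genes in both backgrounds on the log2 scale. Its level was 15.32 and 14.76 FPKM in control DMSO, 6.945 and 7.329 FPKM in control ES, 15.44 and 14.67 FPKM in FDX1-OE DMSO, and 5.253 and 4.895 FPKM in FDX1-OE ES. The DMSO libraries of both kinds of cell overlapped, and the ES libraries of FDX1-OE cells lay below those of control cells. ES left 47.5% in control and 33.7% in FDX1-OE cells. The log2 changes were -0.98 ± 0.07 and -1.40 ± 0.07, rank 4 of the falls among the 9805 genes in each background, and their difference was -0.42 ± 0.09.

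Of the cell types in which DDN and GFI1B are best known, most defining markers with values were at or near 0. Of 8 neuronal markers 6 had values and MAP2 alone was tested, and the list summed to 1.78 to 1.94 FPKM in control DMSO, 2.32 to 2.71 in control ES, 1.72 to 1.79 in FDX1-OE DMSO and 2.47 to 2.58 in FDX1-OE ES. SNAP25, STMN2 and RBFOX3 were at 0 in both DMSO groups. Of 6 podocyte markers 5 had values, and PODXL alone was tested and made up nearly the whole sum, which was 17.3 to 19.0, 14.6 to 15.4, 19.7 to 19.9 and 17.1 to 19.0 FPKM in the same order. NPHS1, which encodes nephrin, was at group means of 0.013 FPKM or less. Of 11 erythroid and megakaryocyte markers 5 had values and EPOR alone was tested, and the list summed to 4.79 to 5.34, 3.80 to 5.26, 5.06 to 5.25 and 5.59 to 6.38 FPKM. HBB and HBA1 were at 0 in 3 of the 4 groups. The lists for myeloid, T or NK, and epithelial or stromal lineages had 9 markers each, of which 6, 5 and 9 had values and at most 1 per list was tested.

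KREMEN2 encodes a membrane receptor that binds Dickkopf proteins and, with them, removes the Wnt co-receptor LRP6 from the cell surface. It stood at 12.12 and 11.92 FPKM in control DMSO, 6.686 and 5.540 FPKM in control ES, 9.137 and 10.52 FPKM in FDX1-OE DMSO, and 4.655 and 4.733 FPKM in FDX1-OE ES. The FDX1-OE libraries lay below the control libraries in both treatments. ES left 50.9% in control cells and 47.8% in FDX1-OE cells. The fitted log2 changes were -0.88 ± 0.09 and -0.92 ± 0.09. Their difference, -0.05 ± 0.13, ran from -0.16 to 0.07 as single libraries were left out, so its sign was not fixed.

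Of 15 tested genes of Wnt receptors, inhibitors and relay, 4 rose and 3 fell in control cells, and 2 rose and 3 fell in FDX1-OE cells, with median log2 changes of 0.01 and 0.02. Under RLE scaling 2 rose and 5 fell in control cells and 5 fell in FDX1-OE cells. DVL1, which relays the signal from the receptor, fell to 0.74 in control and 0.75 in FDX1-OE cells. LRP5, a Wnt co-receptor, fell to 0.68 in FDX1-OE cells, where BCL9, a beta-catenin cofactor, fell to 0.74. GSK3B, a kinase that marks beta-catenin for destruction, rose 1.23-fold in control and 1.26-fold in FDX1-OE cells. LEF1, a transcription factor of the pathway, rose 1.37-fold in control cells.

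GFI1B encodes a zinc-finger repressor known from red cell and platelet precursors, which recruits the histone demethylase LSD1 with CoREST. Its level was 9.617 and 10.14 FPKM in control DMSO, 9.557 and 9.727 FPKM in control ES, 9.884 and 10.41 FPKM in FDX1-OE DMSO, and 5.669 and 6.954 FPKM in FDX1-OE ES. Its pattern was that of TUBA4A: both FDX1-OE ES libraries lay below the other 6, which overlapped. ES left 97.6% in control and 62.2% in FDX1-OE cells. Fitted log2 changes of GFI1B were -0.03 ± 0.08 and -0.61 ± 0.08, and the difference of -0.58 ± 0.12 was the largest of the 10 on the FPKM + 1 scale. With voom on recovered reads it was -0.66 for GFI1B and -0.81 for TRIP10. Of 12 tested genes of the LSD1 and CoREST complex, 2 rose and 4 fell in control cells, and 3 rose and 4 fell in FDX1-OE cells, where under RLE scaling 1 rose. Of all genes tested 25.5% rose and 12.9% fell in control cells, and 37% rose and 19.2% fell in FDX1-OE cells. In FDX1-OE cells KDM1A, which encodes LSD1 itself, fell to 0.76. The histone methyltransferase gene EHMT2 fell to 0.77 there, the deacetylase gene HDAC2 to 0.78 and HMG20B, a DNA-binding subunit, to 0.79. PHF21A, the subunit that reads unmodified histone tails, rose 1.24-fold in control cells.

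Set side by side, the 10 genes showed 3 arrangements of the ES levels. In 8 genes both FDX1-OE ES libraries lay below both control ES libraries: DDN, KREMEN2, SAPCD2, SLC17A9, TRIP10, TUBA4A, RAB3A and GFI1B. Of all genes tested 25.4% had this order. In RABAC1 both FDX1-OE libraries lay above both control libraries in ES, and in INKA1 the groups overlapped. As a ratio of mean FPKM, FDX1-OE cells in ES held 0.58 of the control level for TRIP10, 0.64 for RAB3A, 0.66 for GFI1B and SLC17A9, 0.70 for TUBA4A and 0.71 for DDN. The ratio was 0.77 for KREMEN2, 0.86 for SAPCD2, 0.99 for INKA1 and 1.06 for RABAC1. In DMSO the same ratio lay between 0.82, for KREMEN2 and INKA1, and 1.04, for TUBA4A.

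For KREMEN2 the ratio was 0.82 in DMSO and 0.77 in ES, so FDX1-OE cells held less of it than control cells in both treatments. For TRIP10 it was 1.02 in DMSO and 0.58 in ES, so the levels parted in ES. In such bulk samples fewer cells that hold an RNA and less of it per cell cannot be told apart. Of the 10 genes, 8 were called lower with ES in control cells, where 12.9% of all genes tested were, and 10 in FDX1-OE cells, where 19.2% were. In the interaction, which subtracts the ES change in control cells from that in FDX1-OE cells, 4 were called lower (SLC17A9, DDN, TUBA4A and GFI1B), where 1.05% of all genes were called lower and 4.3% in either direction. In ES, 7 were called lower in FDX1-OE than in control cells, where 7.78% of all genes were. These counts describe the choice of the genes and nothing is read from them. The choice had no stated threshold.

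**Figure D2:**
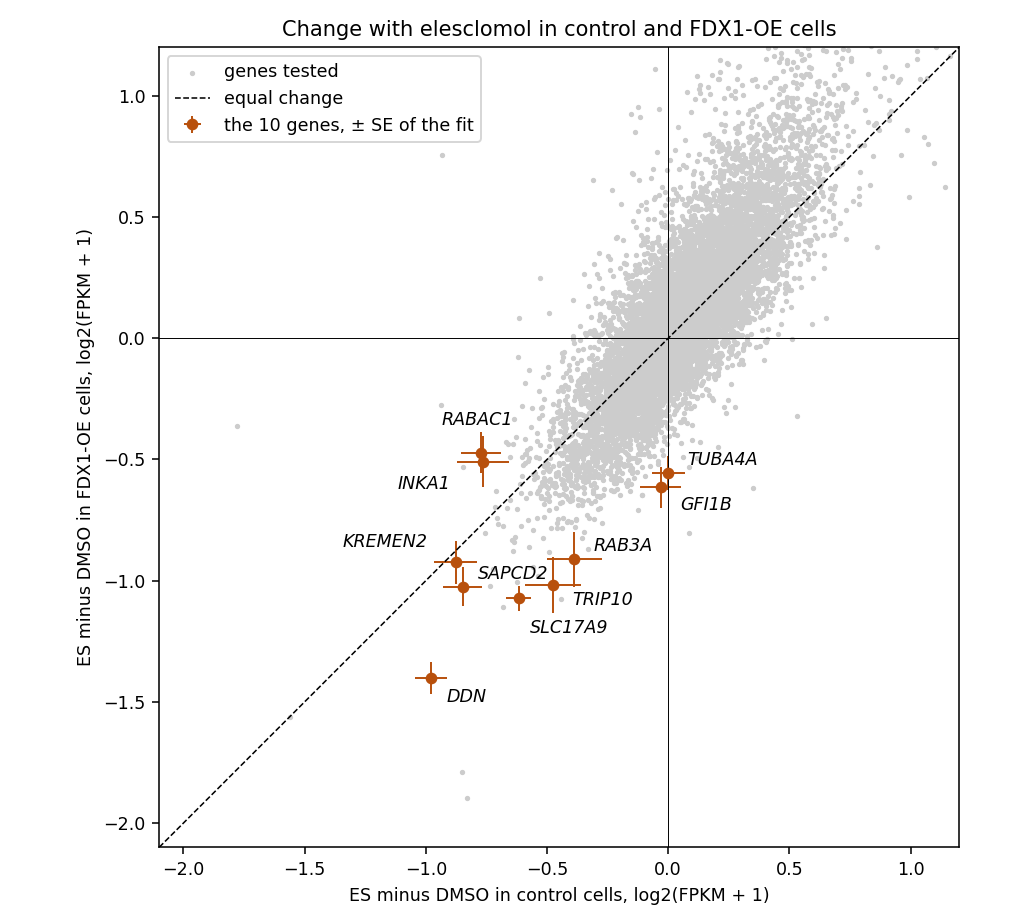
Change with ES of each gene tested in control cells (horizontal axis) and in FDX1-OE cells (vertical axis), in log2(FPKM + 1), with the 10 genes in orange and their SE. The dashed line marks equal change: SLC17A9, TRIP10, RAB3A, TUBA4A, GFI1B and DDN lie below it by 0.42 to 0.58, KREMEN2 lies within 1 SE of it, and RABAC1 and INKA1 lie above it. The 183 genes that rose by more than 1.2 are outside the axes.

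Before ES, FDX1-OE and control cells were compared in DMSO, a contrast the choice did not use, although it shares the DMSO libraries with those it did. None of the 10 genes was called (limma adjusted p from 0.47 to 1.00), where 0.51% of all genes were called. At an unadjusted p below 0.05 there were 4: KREMEN2 by -0.27 ± 0.09, RABAC1 by -0.22 ± 0.08, INKA1 by -0.27 ± 0.11 and SLC17A9 by -0.12 ± 0.05 on the log2 scale. That count was 0 without the first control DMSO library, 2 without the first and 1 without the second FDX1-OE DMSO library. It was 2 with no filter and 3 with voom on recovered reads, and none of the 10 genes was called in any of these settings. In these 4 genes both FDX1-OE libraries lay below both control libraries, an order that 18.1% of all genes tested shared. For the other 6 genes the difference was between -0.05 and 0.05, with SEs of 0.07 to 0.11.

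Close relatives of the 10 genes were split in direction. Of 26 paralogues 11 were tested, of which 5 rose and 2 fell in control cells and 5 rose and 2 fell in FDX1-OE cells, and 3 rose in each background under RLE scaling. TUBA1A, another alpha-tubulin, stood at 122.3 and 133.3 FPKM in control DMSO and 192.2 and 202.1 FPKM in control ES. In FDX1-OE cells it stood at 129.3 and 121.9 FPKM in DMSO and at 199.5 and 203.5 FPKM in ES. It thus rose 1.54-fold and 1.60-fold, while TUBA4A was level in control cells and lower in FDX1-OE cells. TUBA1C fell to 0.85 of DMSO in control cells (limma adjusted p = 0.0064, and 0.053 without the first control ES library) and to 0.67 in FDX1-OE cells (adjusted p = 1.2e-05). TUBA1B, at 2909 to 3685 FPKM the most abundant of them, rose in control cells (log2 change 0.20), but that call was lost in 4 of 15 alternatives, RLE scaling among them, and in FDX1-OE cells it stood at 0.94 and was not called. TUBA8 stood near 1 FPKM and was not called.

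PRAF2, of the same family as RABAC1, rose 1.61-fold and 1.87-fold from levels under 1 FPKM, and ARL6IP5, also of that family, stood at 1.06 of DMSO in both backgrounds and was not called. SAPCD1 rose 1.43-fold and 1.40-fold, where SAPCD2 was lower. RAB3D fell to 0.77 in control cells (limma adjusted p = 0.011, and 0.083 without the second control DMSO library) and stood at 0.93 in FDX1-OE cells, uncalled. SLC17A5, the lysosomal sialic acid transporter, stood at 0.88 in control cells, uncalled, and fell to 0.77 in FDX1-OE cells. FNBP1, an F-BAR relative of TRIP10, rose by log2 changes of 0.21 and 0.29, calls that were lost in 9 and 2 of 15 alternatives. INKA2 rose 1.21-fold in FDX1-OE cells, lost in 5 of 14 alternatives.

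**Figure D3:**
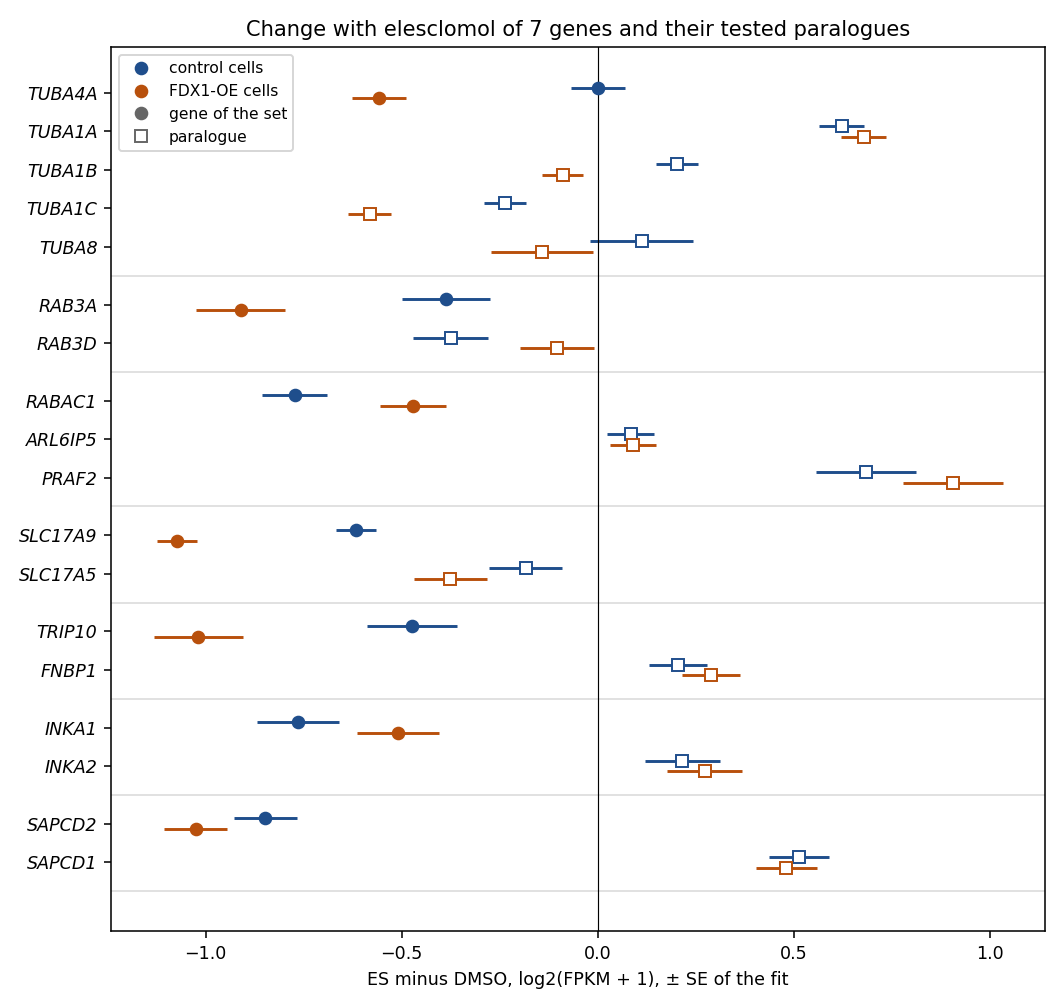
Change with ES in log2(FPKM + 1), with the SE of the fit, for 7 of the 10 genes (filled circles) and their 11 tested paralogues (open squares) in control (blue) and FDX1-OE cells (orange). TUBA1A, PRAF2 and SAPCD1 lie to the right of 0 in both backgrounds, opposite to TUBA4A in FDX1-OE cells and to RABAC1 and SAPCD2 in both.

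The partners of alpha-tubulin were split too. Of 20 tested beta and gamma tubulins and tubulin-folding genes, 5 rose and 5 fell in control cells, and 5 rose and 8 fell in FDX1-OE cells, with median log2 changes of -0.01 and -0.06. Under RLE scaling 3 rose in control cells. TUBB3 fell to 0.75 in control and 0.63 in FDX1-OE cells, TUBB4B to 0.79 and 0.84, and TUBB to 0.78 in FDX1-OE cells. TUBB2A rose 1.58-fold in FDX1-OE cells, and TUBG2, a gamma-tubulin of microtubule nucleation, rose 1.37-fold and 1.31-fold.

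The genes next to the 10 on their chromosomes mostly did not share their fall. INKA1, on chromosome 3, lies beside UBA7, the activating enzyme for the ubiquitin-like protein ISG15. UBA7 stood at 0.5882 and 0.7218 FPKM in control DMSO, 7.909 and 6.615 FPKM in control ES, 1.177 and 1.463 FPKM in FDX1-OE DMSO, and 16.64 and 15.17 FPKM in FDX1-OE ES. It thus rose 4.98-fold and 7.29-fold on the FPKM + 1 scale. Beside DDN on chromosome 12, PRKAG1, a subunit of the energy sensor AMPK, rose 1.61-fold and 1.84-fold. TRIP10, on chromosome 19, lies between GPR108, which rose 1.24-fold and 1.34-fold (the first lost without the first control DMSO library, limma adjusted p = 0.060), and SH2D3A. SH2D3A fell to 0.86 in control cells, a call lost in 5 of 15 alternatives, and to 0.71 in FDX1-OE cells. The neighbours of KREMEN2 (FLYWCH1 and PAQR4) and GID8 beside SLC17A9 were not called in either background.

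The gene with the profile most like each member over the 8 libraries, by Pearson's r of log2(FPKM + 1), was found among all genes tested. It was SLC19A1 for DDN (r = 0.999), TBL3 for SAPCD2 (0.997), DCUN1D5 for SLC17A9 (0.997), ATP5F1D for RABAC1 (0.993), SH2D3A for TRIP10 (0.991) and GNL3 for TUBA4A (0.991). It was HK1 for RAB3A (0.989), TWF2 for KREMEN2 (0.987), SENP3 for GFI1B (0.985) and BAK1 for INKA1 (0.984). The 5 genes most like the mean profile of the 10 were FBL (0.997), DCUN1D5, HNRNPL, LRRC59 and EIF3B (0.996 each). The points are 4 pairs of libraries in separate groups, so r mainly reflects the order of the group means, and FBL, the methyltransferase of ribosomal RNA processing, fell to 0.81 of DMSO in control and 0.71 in FDX1-OE cells. Among the 10 genes themselves r ran from 0.44, for TUBA4A with RABAC1, to 0.985, for SAPCD2 with DDN, and it was 0.975 for TUBA4A with GFI1B.

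Called genes outside the 10 lay close by in rank. In control cells DDN ranked 4, KREMEN2 7, SAPCD2 9, RABAC1 12 and INKA1 13 by the size of the fall, among RASA4 (1), S100A4 (5), GPR89A (6), HSPE1 (10) and GATD3B (14). RASA4 rested on 6.444 and 2.083 FPKM in its control DMSO libraries, in proportion a wider spread than any of the 10 genes had within a group. S100A4, a calcium-binding protein, stood at 6.045 and 6.05 FPKM in control DMSO and 3.239 and 2.202 FPKM in control ES. In FDX1-OE cells DDN ranked 4, SLC17A9 7, SAPCD2 8, TRIP10 10, KREMEN2 15 and RAB3A 16, among SLX1B (1), TRIB1 (6), FKBP4 (9), NOP16 (11) and DBN1 (12). FKBP4, a co-chaperone of HSP90, stood at 188.7 and 184.9 FPKM in FDX1-OE DMSO and at 91.36 FPKM in both FDX1-OE ES libraries. SLX1B rested on 8.871 and 4.878 FPKM in FDX1-OE DMSO and on 0.8885 and 1.217 FPKM in FDX1-OE ES. RASA4, GPR89A, GATD3B and SLX1B have near-identical copies in the genome, among which counting could split reads, so their values are uncertain.

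The transcripts of the 10 genes were rich in G and C. In the longest protein-coding transcript of each gene (GENCODE release 29), the G and C share ran from 56.0% for TRIP10 to 68.8% for KREMEN2, and all 10 lay above the median of 48.7% over the 9619 tested genes with a value (98.1%). In the upper 20% of genes by this share, from 58.6% up, were 7 of the 10. Among the 1924 genes of that upper part, 21.2% were called lower with ES in control and 24.4% in FDX1-OE cells. Of the 1928 genes of the lower 20%, 7.16% and 14.1% were. Over the 9619 genes the Spearman correlation of this share with the log2 change was weak, at -0.133 in control and -0.033 in FDX1-OE cells. With the interaction it was 0.116, so a higher share went weakly with a higher change in FDX1-OE than in control cells. That value covers genes that rose as well as genes that fell, so it does not describe the size of falls. Calls went the other way: a larger part of the upper 20% than of the lower 20% was called lower in the interaction. Transcript length ran from 821 bases for RABAC1 to 3848 for SAPCD2, beside a median of 3313 over the tested genes with a value. Most of the 10 were shorter than that median, and DDN, SAPCD2 and SLC17A9 were longer. The part of G and C share in the falls was not tested.

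**Figure D4:**
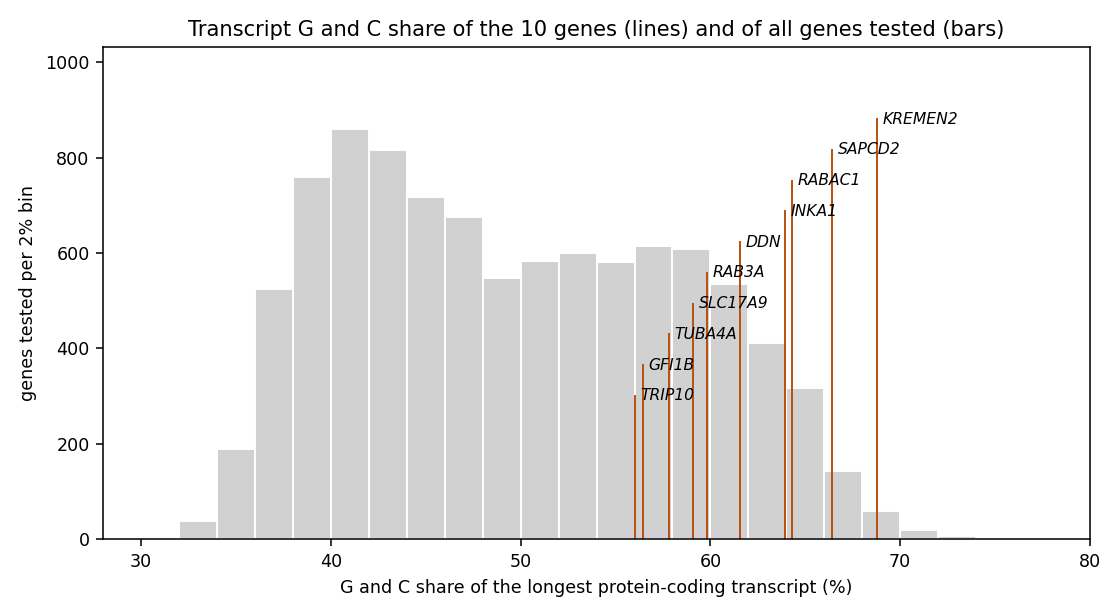
Number of tested genes per 2% bin of G and C share in the longest protein-coding transcript (bars), with the share of each of the 10 genes as an orange line whose height serves the label only. All 10 lines lie above the median of 48.7%, from TRIP10 at 56.0% to KREMEN2 at 68.8%.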

How the data were processed

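RNA-seq was measured in 8 libraries, 2 in each of 4 groups taken from the labels. The deposited values are FPKM made by the authors, a unit read from the values because the file headers give none. Per the submitters' processing notes HISAT2, HTSeq, R 3.2.0 and the build hg19 were used. What each did, the gene annotation and the use of strand are not stated there. FPKM of all 15597 genes (100%) came out as whole reads within 0.02 read, which gave totals of 33435438 to 35883528 reads. For a gene of 1 kilobase 3 reads equal 0.0836 to 0.0897 FPKM, a limit for counting error only. The libraries of a group differed beyond sampling noise.

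The 4 group means were fitted to all 8 libraries on the log2(FPKM + 1) scale with limma 3.58.1 (R 4.3.3) and a mean trend. Two-sided p-values were adjusted by Benjamini-Hochberg over the 9805 genes that reached 1 FPKM in 2 or more libraries, and genes were called at an adjusted p below 0.05. The fit had 4 residual and 6.6 prior degrees of freedom, and its log2 changes understate those of low genes. Exact permutation of 2 against 2 libraries gives no p under 0.33, so none was run. The fit and the recovery of reads were tested on simulated data.

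The 10 genes, the gene lists and the tests were chosen with earlier results of these data known. Genes named are the 10, their tested paralogues, up to 3 called genes of each list and background with the smallest p, the adjacent genes, the 5 largest falls among called genes outside the 10 and the nearest profiles. Of the list genes, those whose call held under every alternative are named, and some results are not reported here. Alternatives were RLE scaling, a pseudocount of 0.1, no filter, a mean of at least 5 FPKM, a replicate block, voom on the recovered reads, the libraries of the comparison alone, and each library left out.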

Additional observations from a re-analysis of the deposited data

Results flagged for a closer look

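In 6 genes of the lists around the 10 genes the response to ES was called different between FDX1-OE and control cells. The test was of the difference itself (limma, log2 scale, change in FDX1-OE cells less that in control cells). Among all genes tested 4.3% were called. The calls were 1 of 11 paralogues, 1 of 30 CDC42, PAK and actin genes, 1 of 15 Wnt genes and 1 of 13 purine genes. Of 20 tubulin genes 1 was called higher and 1 lower. There were 0 calls among 31 Rab, 16 spindle and 12 LSD1 and CoREST genes. The share over the lists was near that of all genes, and nothing is read from the count. TUBB2A, a beta-tubulin, changed by -0.07 in control and 0.66 in FDX1-OE cells, a difference of 0.731 (adjusted p = 0.013, called in 11 of 14 alternatives). P2RX5, an ATP-gated channel, changed by -0.12 and 0.53, a difference of 0.648 (adjusted p = 0.0031, called in all 14 alternatives). For LEF1, with 0.45 in control cells, the difference was -0.436 (adjusted p = 0.018, called in 9 of 14 alternatives). It was -0.345 for TUBA1C (adjusted p = 0.036, 7 of 14), -0.316 for ARHGDIA (adjusted p = 0.038, 5 of 14) and -0.276 for TUBB (adjusted p = 0.042, 5 of 14).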

How the results depend on the processing

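Members kept the direction of their ES changes under all alternatives, except TUBA4A and GFI1B in control cells, whose values lay about 0. KREMEN2 alone changed sign in the interaction, and INKA1 alone between FDX1-OE and control cells in ES. In DMSO none of the 10 genes was called under any of 15 alternatives (lowest adjusted p between 0.11 and 0.97). Differences near 0 there turned sign as single libraries were left out, with ranges of -0.033 to 0.036 for DDN, -0.104 to 0.014 for SAPCD2, -0.102 to 0.145 for TRIP10 and -0.072 to 0.006 for RAB3A. The turns came without the second control DMSO library (DDN, -0.024) or without 1 FDX1-OE DMSO library (the first for DDN and RAB3A, the second for SAPCD2 and TRIP10). TRIP10 has no value with a mean of at least 5 FPKM, and the interaction, which uses all 8 libraries, has none on the libraries of the comparison alone.

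The interaction called 422 genes, but 222 with a pseudocount of 0.1, 176 with no filter, 639 with voom and 79 to 630 with a library left out (fewest without the first FDX1-OE ES library). FDX1-OE against control cells in DMSO called 50 genes, but 2 with no filter, 82 with voom and 15 to 68 with a library left out (fewest without the first control DMSO library). In ES it called 2094, and 748 to 1944 with a library left out (fewest without the second control ES library). The cause was not tested. The ES comparisons called 3767 and 5510 genes, and 2526 to 3701 and 4355 to 5523 with a library left out. RLE scaling turned the split of calls from 2498 higher and 1269 lower to 1694 and 2124 in control cells, and from 3632 and 1878 to 2382 and 3105 in FDX1-OE cells.

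Same-numbered libraries of different groups had deviations correlated between -0.18 and 0.18 over 9805 genes. Such values cannot tell whether same-numbered libraries shared a batch, and the labels do not say. The replicate block called 3804, 5575, 526, 56 and 2173 genes in control cells, FDX1-OE cells, the interaction, DMSO and ES, and none of the 10 genes in DMSO (lowest adjusted p = 0.27). Depth limits TRIP10 most, with 107 reads in its lowest library.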

Other observations

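The 10 genes differed widely in level. Among the 9805 genes tested, by mean FPKM in control DMSO, TUBA4A stood at the 96.2 percentile of FPKM, RABAC1 at 94.6 and SAPCD2 at 92.6, while RAB3A stood at 42.7. In absolute terms RABAC1 lost 49.9 FPKM with ES in control cells and 29.2 FPKM in FDX1-OE cells, INKA1 lost 8.93 and 5.24 FPKM, and KREMEN2 lost 5.91 and 5.14 FPKM. TUBA4A lost 51.4 FPKM in FDX1-OE cells, SLC17A9 lost 15.7 FPKM in control and 21.8 FPKM in FDX1-OE cells, and RAB3A lost 2.22 and 4.29 FPKM.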
